A study of Mus musculus with 21 samples.

Results

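Genes that guide immune cells to the skin, 9 in number, were followed through mouse skin and skin-draining lymph nodes. They are the chemokine ligands *Ccl27a*, *Ccl27b*, *Ccl17*, *Ccl22* and *Ccl20* and the receptors *Ccr10*, *Ccr4*, *Ccr8* and *Ccr6*. They were found by gene symbol in the deposited count tables, which hold 55491 gene rows. The 9 symbols match 11 rows, because *Ccl27a* has 3. After edgeR's filter on low counts, 10 of the 11 rows could be tested in skin and 6 in lymph nodes.

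The study asked what interferon kappa made by keratinocytes does to skin and to draining lymph nodes. *Ifnk* TG mice carry *Ifnk* under the keratin 14 promoter, which is active in basal keratinocytes, and were made on C57Bl/6 and then backcrossed to BALB/c. Wild-type (WT) controls were BALB/c. All skin was labelled as untreated and was taken at 12 months of age. It gave 3 libraries from WT mice and, from *Ifnk* TG mice, 2 of nonlesional (NL) and 4 of lesional (L) skin. Inguinal lymph nodes came from mice whose age the labels do not give, in 4 groups of 3: WT and *Ifnk* TG, each without treatment and after UVB. Shaved back skin received 250 mJ/cm2 UVB on 3 days per week for 2 weeks, and nodes were taken after 2 more weeks of observation. The labels do not give the sex, the body site or the mouse of a library, so it is unknown whether NL and L samples share mice. For UVB-treated nodes the study counts mice as it does libraries, and for the other groups it is not stated here whether replicates are separate animals. P-values therefore measure the spread between these samples.

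Chemokines are small secreted proteins that bind to receptors on leukocytes and steer them along a gradient. CCL27 is made by keratinocytes and binds to CCR10. CCL17 and CCL22, made mostly by dendritic cells and macrophages, share the receptor CCR4, which marks skin-homing and regulatory T cells. CCR8 sits on skin-resident and regulatory T cells and binds to CCL1 and, in mice, CCL8. CCL20 is made by epithelium under inflammatory cytokines and attracts cells with CCR6, among them B cells, dendritic cells and T cells that make IL-17.

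The 21 libraries held 40499078 to 56511276 counts in skin and 27599809 to 36428435 in nodes. Levels are counts scaled by library size (CPM) with edgeR's TMM factors, and 3 counts were taken as the floor. *Ifnk* was at or near that floor, with no count in WT skin or any node, 6 and 0 counts in NL skin and 5 to 14 counts in L skin. It is not known whether the *Ifnk* row collects reads from the transgene. Skeletal muscle markers, 5 of 5 genes measured, summed to 18.3 to 5557 CPM in L skin, 20762 to 23835 CPM in NL skin and 19038 to 27570 CPM in WT skin. Hair shaft markers, 5 measured genes, summed to 1136 to 4275 CPM in L skin and at most 1.08 CPM elsewhere. Of these, the test called 1 muscle marker lower and all 5 hair shaft markers higher in L against WT skin. Tissue make-up and lesion state therefore varied together, and their parts in the skin results cannot be told apart. L replicates 4 and 5 lay at opposite ends of the second principal component of the skin libraries, and replicate 5 lay farthest out on the first. Among nodes, UVB-treated *Ifnk* TG replicate 11 lay apart on the second component, and replicate 12 of that group lay nearer to untreated nodes than its partners did on the first. Node libraries held B cell markers at 1244 to 2404 CPM and T cell markers at 1375 to 1840 CPM. In bulk tissue, fewer cells of a type and less RNA per cell cannot be told apart.

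The upstream sequences of the ligands that rose in lesions are shown first. They come from RefSeq's table of promoters on GRCm38.p6, 250 bases before to 50 after each start site, which held 14 promoters of 8 of the 9 genes. Only bases before the annotated gene are printed, 5′ to 3′ on the gene's strand. Capitals mark matches to 3 motifs searched on both strands: the NF-kB consensus, a STAT6-type motif written TTCNNNNGAA and a GAS-type motif written TTCNNNGAA. The STAT6-type and GAS-type letters read the same on both strands, so their matches count once. In the printed windows no match overlapped another motif.
*Ccl20*, chr1:83116516-83116765, plus strand: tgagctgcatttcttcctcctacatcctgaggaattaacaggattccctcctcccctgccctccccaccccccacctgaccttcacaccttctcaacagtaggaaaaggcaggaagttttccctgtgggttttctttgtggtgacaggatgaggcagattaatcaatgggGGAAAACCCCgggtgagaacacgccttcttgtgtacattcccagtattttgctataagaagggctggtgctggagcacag
*Ccl17*, chr8:94810203-94810452, plus strand: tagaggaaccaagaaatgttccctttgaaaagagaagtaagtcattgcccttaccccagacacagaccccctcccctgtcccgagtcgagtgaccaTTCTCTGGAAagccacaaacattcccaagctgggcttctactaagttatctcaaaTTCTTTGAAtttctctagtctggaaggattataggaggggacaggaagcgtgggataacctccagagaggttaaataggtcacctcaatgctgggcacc
*Ccl22*, chr8:94745434-94745589, plus strand: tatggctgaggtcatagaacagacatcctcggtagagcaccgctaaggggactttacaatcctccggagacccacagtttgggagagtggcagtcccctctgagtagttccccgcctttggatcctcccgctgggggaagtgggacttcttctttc
The *Ccl20* window held an NF-kB match on the reverse strand, at positions -80 to -71 from the start site. The *Ccl17* window held a STAT6-type match at -154 to -145 and a GAS-type match at -99 to -91. The *Ccl22* window held none of the 3 motifs. Of the receptors that also rose in lesions, the *Ccr8* promoter, not printed, held none either, and *Ccr10* had no promoter entry. Over all 32851 promoters of that length, 8.46% held the NF-kB consensus, 6.95% the STAT6-type and 8.3% the GAS-type motif. Among the 14 member promoters the counts were 3, 1 and 2. A second start site of *Ccr6* and the most downstream start site of *Ccl27a* gave the other NF-kB matches, and *Ccr6* the other GAS-type matches. These are matches of letters, and binding was not measured.

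Lesional skin held more RNA for *Ccl20*, *Ccl22*, *Ccl17*, *Ccr8* and *Ccr10* than WT skin. *Ccl20* rose 5.48-fold, *Ccl22* 3.43-fold and *Ccl17* 10.2-fold, and the receptors *Ccr8* and *Ccr10* rose 2.81-fold and 2.77-fold. *Ccl17* passed the low-count filter only through the L libraries. *Ccl27a*, *Ccl27b*, *Ccr4* and *Ccr6* did not pass the test. So 5 of the 10 tested rows were called, all of them higher. Of all 19101 genes tested, 43.1% were called in this comparison, 23% higher and 20.2% lower, so the share of called rows among the members was close to that of all genes and says nothing particular about them. Groups without overlap were also common. Every L library was above every WT library for 26% of all genes and below for 23.4%. Against NL skin these shares were 24.7% and 24.7%. Both NL libraries were above all WT libraries for 18.6% of genes and below for 16.3%.

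**Figure D1:**
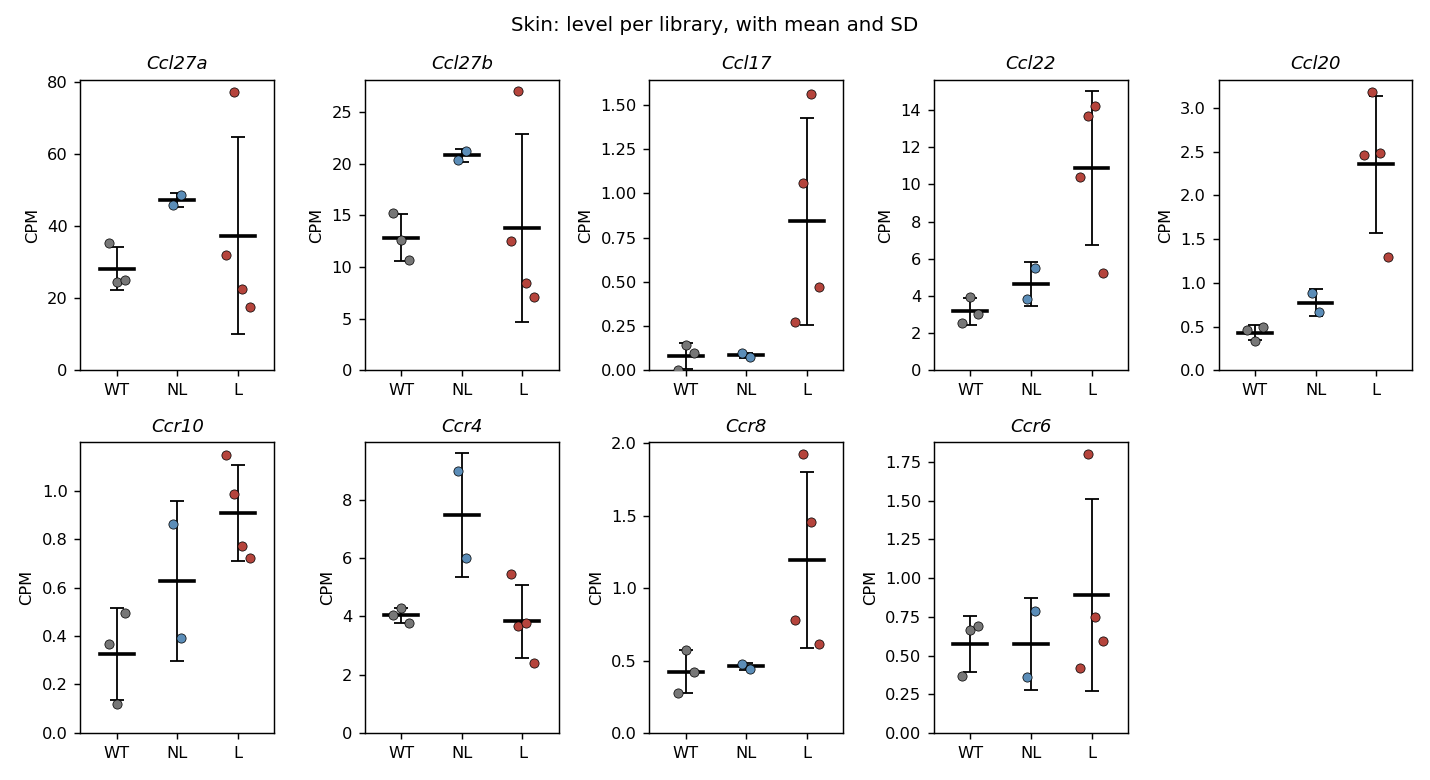
Level of each gene in CPM (vertical axes, each starting at 0) in every skin library, as 1 point, for WT (n = 3), NL (n = 2) and L (n = 4). Horizontal bars are means and error bars SD. The 4 L points of *Ccl20* lie between 1.30 and 3.18 CPM, above all WT and NL points, while those of *Ccl27a* run from 17.5 to 77.2 CPM and span both other groups.

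*Ccl20* (ENSMUSG00000026166, chromosome 1, 83116766 to 83119167 on the plus strand of GRCm38) encodes the only known chemokine ligand of CCR6. It was measured at 0.46, 0.33 and 0.49 CPM in the 3 WT libraries. The 2 NL libraries held 0.88 and 0.66 CPM. The 4 L libraries held 2.46, 3.18, 2.49 and 1.30 CPM. Every L library was above every NL library, and both NL libraries were above every WT library. Against WT skin the difference was 2.45 on the log2 scale (SE 0.37, adjusted p = 0.00118), and it was called whichever library was left out. Against NL skin it was 1.60 (SE 0.41, adjusted p = 0.0229). That call was lost without NL replicate 2 (adjusted p = 0.0980) or NL replicate 3 (0.162), and when only those 2 groups were fitted (0.0515). NL and WT skin differed by 0.85 (SE 0.42, adjusted p = 0.683).

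*Ccr6*, its receptor (ENSMUSG00000040899, chromosome 17, 8236043 to 8257141, plus strand), showed no such step. It had 0.36, 0.66 and 0.69 CPM in WT, 0.36 and 0.78 CPM in NL and 0.42, 1.80, 0.75 and 0.59 CPM in L libraries. The groups overlapped, and the L value rested on replicate 5. L exceeded WT by 0.62 on the log2 scale (95% interval -0.66 to 1.91, adjusted p = 0.403), and by 0.03 when L replicate 5 was left out. Markers of epidermal and γδ T cells, some of which carry CCR6, did not follow *Ccr6*. Of 6 such markers 1 was higher in L than in WT skin and 4 were lower, and their sum was 22.2 to 30.9 CPM in L, 33.5 to 47.1 CPM in NL and 34.2 to 41.7 CPM in WT skin. Their part in the *Ccr6* level was not tested.

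*Ccl22* and *Ccl17* are neighbours on chromosome 8, both on the plus strand, at 94745590 to 94751699 (ENSMUSG00000031779) and 94810453 to 94812036 (ENSMUSG00000031780). *Ccl22* was measured at 2.53, 3.94 and 3.04 CPM in WT, 3.82 and 5.49 CPM in NL and 10.4, 13.7, 14.2 and 5.23 CPM in L libraries. All L libraries exceeded all WT libraries, and only L replicate 7 fell within the NL range. The difference from WT was 1.78 on the log2 scale (SE 0.36, adjusted p = 0.00461) and was called in all 9 fits that left out 1 library. Against NL skin it was 1.22 (SE 0.41, adjusted p = 0.0567), which missed the threshold. It passed with DESeq2 (adjusted p = 0.0123), with *Xist* as a covariate (0.0496) and without L replicate 7 (0.00919), and over the settings that kept all libraries adjusted p ran from 0.0123 to 0.104.

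*Ccl17* was far lower. It had 0, 0.14 and 0.10 CPM in WT, 0.10 and 0.07 CPM in NL and 0.27, 1.06, 1.56 and 0.47 CPM in L libraries. No WT or NL library held more than 6 counts, near the floor, and the lowest L library held 15. Only L libraries thus reached the filter's 10 counts, so *Ccl17* entered the test through the group where it was high. Its calls are therefore not independent of that filter. L exceeded WT by 3.35 on the log2 scale (95% interval 1.24 to 5.46, adjusted p = 0.0188). The call was lost without WT replicate 10 (adjusted p = 0.0538). Against NL skin the value was 3.26 (95% interval 0.80 to 5.72, adjusted p = 0.0569). DESeq2 called it (adjusted p = 0.00593), as did the fits without L replicate 4 (0.0330) and without WT replicate 8 (0.0354).

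The receptor of both, *Ccr4* (ENSMUSG00000047898, chromosome 9, 114490316 to 114504916, minus strand), took another course. It had 4.04, 4.27 and 3.78 CPM in WT, 8.98 and 5.98 CPM in NL and 5.46, 3.68, 3.77 and 2.41 CPM in L libraries. Both NL libraries were higher than every WT and every L library, while L and WT overlapped. *Ccr4* fell by 0.97 on the log2 scale from NL to L skin (SE 0.30, adjusted p = 0.0468). That call was made in 1 of 9 fits that left out a library, the one without L replicate 4 (adjusted p = 0.0148), and adjusted p was 0.0573 to 0.334 in the others. It was also lost with upper-quartile normalization (0.0524), without the low-count filter (0.0554), with *Xist* as a covariate (0.0602) and with only those 2 groups fitted (0.104). The NL group exceeded WT by 0.89 (95% interval 0.15 to 1.63), with an unadjusted p of 0.0232 and an adjusted p of 0.599. L and WT differed by -0.07 (95% interval -0.70 to 0.56, adjusted p = 0.850). Without L replicate 7 it was 0.10, the opposite sign. The sum of 6 regulatory T cell markers was also highest in NL skin, at 60.0 to 65.2 CPM in NL, 30.2 to 59.3 CPM in L and 34.5 to 45.6 CPM in WT skin. Of these markers *Foxp3* and *Il2ra* were higher and *Ikzf2* lower in L than in NL skin. The median change of the 6 markers from NL to L skin was 0.36, beside 0.03 for all genes. The higher sum in NL than in L skin was thus not a rise of most of these markers. Their part in the *Ccr4* level was not tested.

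*Ccr8* (ENSMUSG00000042262, chromosome 9, 120092114 to 120094906, plus strand) was measured at 0.27, 0.57 and 0.42 CPM in WT, 0.48 and 0.44 CPM in NL and 0.78, 1.92, 1.45 and 0.61 CPM in L libraries. Each L library was above each WT and NL library, replicate 7 by the smallest margin. The difference from WT was 1.49 on the log2 scale (SE 0.48, adjusted p = 0.0341). The call was kept without L replicate 4, L replicate 7 or WT replicate 9 and was lost in the other 6 such fits, with adjusted p from 0.0515 to 0.110. It was also lost with *Xist* as a covariate (adjusted p = 0.0574) and with only those 2 groups fitted (0.0581). Against NL skin it was 1.36 (SE 0.55, adjusted p = 0.103).

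*Ccr10* (ENSMUSG00000044052) lies on the minus strand of chromosome 11, from 101172997 to 101175443, inside *Cntnap1* on the other strand and without shared exon bases. It had 0.36, 0.12 and 0.49 CPM in WT, 0.86 and 0.39 CPM in NL and 1.15, 0.99, 0.77 and 0.72 CPM in L libraries. L libraries did not overlap with WT libraries but overlapped with NL libraries. The L group exceeded WT by 1.47 on the log2 scale (SE 0.51, adjusted p = 0.0448). Only the fit without WT replicate 10 kept that call, and the other 8 gave adjusted p of 0.0508 to 0.108. It was also lost without the low-count filter (0.0624) and with only those 2 groups fitted (0.0523). Plasma cells carry CCR10, and the sum of 6 plasma cell markers was 434 to 481 CPM in WT, 614 to 647 CPM in NL and 752 to 1217 CPM in L skin. *Mzb1*, *Prdm1* and *Sdc1* were called higher in L than in WT skin, of which *Prdm1* and *Sdc1* are also expressed by keratinocytes. The other markers of the list, *Jchain*, *Tnfrsf17* and *Xbp1*, were not called. The part of plasma cells in the *Ccr10* level was not tested. L exceeded NL by 0.52 (SE 0.55, adjusted p = 0.524) and NL exceeded WT by 0.95 (SE 0.59, adjusted p = 0.730).

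**Figure D2:**
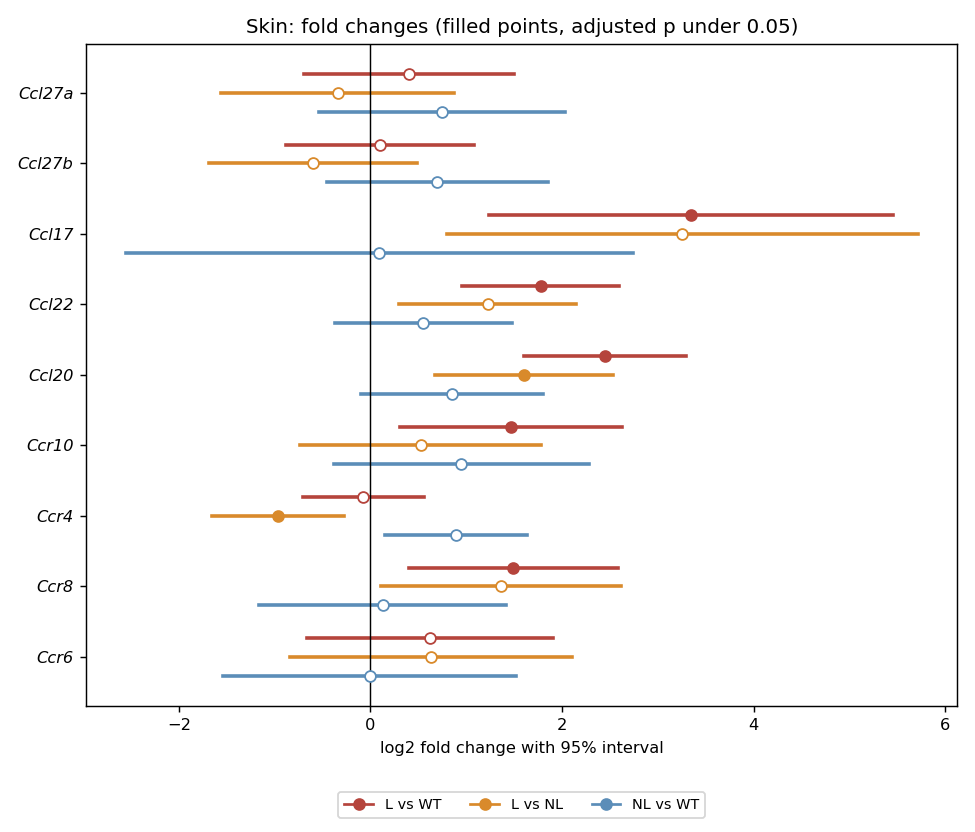
Log2 fold change (horizontal axis) of each gene between skin groups, with its 95% interval. Filled points have an adjusted p under 0.05 by edgeR's test: *Ccl17*, *Ccl22*, *Ccl20*, *Ccr10* and *Ccr8* in L against WT, and *Ccl20* and *Ccr4* in L against NL, the last below 0.

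*Ccl27a* and *Ccl27b* gave the highest levels of all members in skin, and no call. The main *Ccl27a* row (ENSMUSG00000073888, chromosome 4, 41769467 to 41774247, minus strand) had 35.2, 24.4 and 25.0 CPM in WT, 45.9 and 48.5 CPM in NL and 32.0, 77.2, 22.5 and 17.5 CPM in L libraries. *Ccl27b* (ENSMUSG00000096826, chromosome 4, 42655251 to 42656005, plus strand) had 15.2, 12.6 and 10.7 CPM in WT, 20.3 and 21.3 CPM in NL and 12.5, 27.0, 8.46 and 7.10 CPM in L libraries. For both genes the 2 NL libraries were above all WT libraries, as they were for 18.6% of all tested genes. L libraries lay on both sides, replicate 5 above all others and replicates 4, 6 and 7 below NL. NL exceeded WT by 0.74 for *Ccl27a* (95% interval -0.54 to 2.03, adjusted p = 0.771) and by 0.70 for *Ccl27b* (-0.46 to 1.85, adjusted p = 0.761). L and NL differed by -0.34 (SE 0.53, adjusted p = 0.675) for *Ccl27a* and -0.60 (SE 0.47, adjusted p = 0.388) for *Ccl27b*. L and WT differed by 0.40 (SE 0.48, adjusted p = 0.528) and 0.10 (SE 0.43, adjusted p = 0.869).

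Those values turned on L replicate 5. Without it, L and NL skin differed by -0.97 for *Ccl27a* (adjusted p = 0.0282) and -1.15 for *Ccl27b* (adjusted p = 0.0142), both past the threshold, and L and WT skin by -0.23 and -0.45, the opposite sign. Leaving out WT replicate 10 also turned the *Ccl27b* value, to -0.02. Suprabasal keratinocyte markers, 4 of 4 measured, summed to 4935 to 15285 CPM in L, 10055 to 11753 CPM in NL and 5428 to 6882 CPM in WT skin. Basal markers summed to 3434 to 8982 CPM, 7117 to 7746 CPM and 3988 to 4778 CPM. In both lists, as in *Ccl27a*, the NL libraries were above all WT libraries. The L libraries did not follow *Ccl27a* one by one. Replicate 4 had the highest suprabasal and basal sums, 15285 and 8982 CPM, and replicate 5 had 9911 and 8176 CPM. Replicate 7 was the lowest L library in both lists and in *Ccl27a*. The part of keratinocytes in the *Ccl27* levels was not tested.

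The *Ccl27* genes share sequence, and their counts cannot be read as independent. Of the 100-base windows in the *Ccl27b* transcript, 97.9% occur in transcripts of the annotated copy *Gm13306* (ENSMUSG00000073877, chromosome 4, 42153436 to 42158839) and 40.2% in those of *Ccl27a*. *Ccl27b* and *Gm13306* had 667 and 668, 530 and 530, and 432 and 432 estimated counts in the WT libraries. In the L libraries they had 686 and 686, 1096 and 1096, 384 and 391, and 394 and 394. The pair differed by at most 7 counts in any of the 9 libraries, so a difference between these 2 genes was not detectable. A further *Ccl27a* row on an unplaced scaffold (ENSMUSG00000095247) had at most 1.11 CPM, and another (ENSMUSG00000093828) had none in skin. Summed over all these rows, *Ccl27* was measured at 66.0, 49.5 and 46.5 CPM in WT, 87.0 and 91.9 CPM in NL and 57.2, 132, 39.9 and 31.8 CPM in L libraries. The sum differed by 0.73 between NL and WT (95% interval -0.51 to 1.96, adjusted p = 0.767), and by -0.45 between L and NL (-1.62 to 0.71, adjusted p = 0.550). *Il11ra1* is an interleukin receptor gene on the opposite strand whose end overlaps *Ccl27a* by 8 bases. It was higher in L than in NL skin by 0.90 (adjusted p = 0.0241), where 3 of the 4 L libraries were lower for *Ccl27a*. Both genes were highest in L replicate 5, at 160 and 77.2 CPM. The lowest L library was replicate 6 for *Il11ra1* and replicate 7 for *Ccl27a*.

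**Figure D3:**
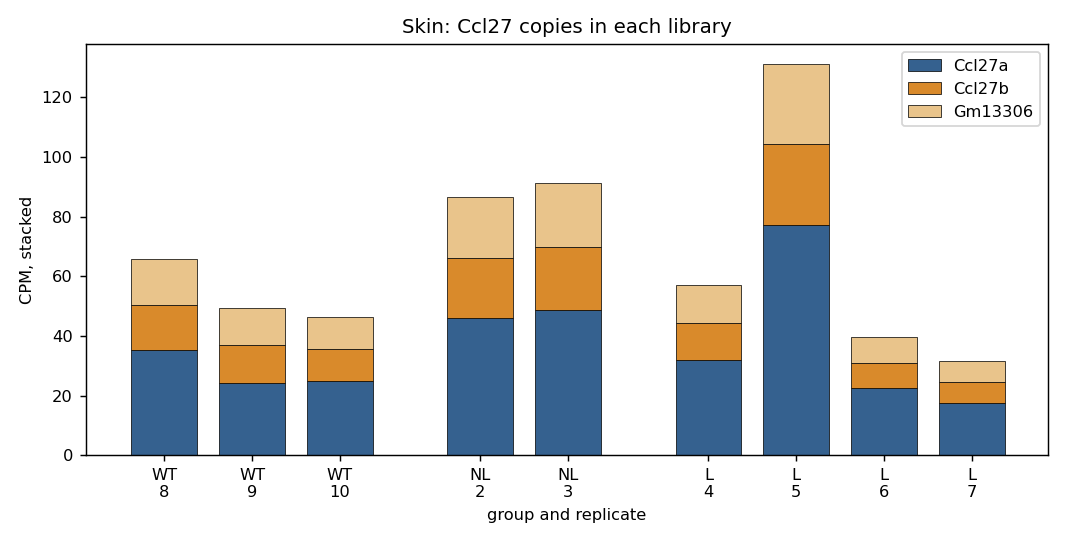
Stacked CPM (vertical axis, starting at 0) of *Ccl27a*, *Ccl27b* and *Gm13306* in each of the 9 skin libraries, labelled by group and replicate. The *Ccl27b* and *Gm13306* segments differ by at most 7 counts in any bar, and L replicate 5 is the tallest bar.

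NL and WT skin gave no call for any member. With edgeR, 0% of all genes were called between them, 1465 of 19101 genes had an unadjusted p under 0.05, and DESeq2 called 62 genes, none of them a member. *Ccr4* was the only 1 of the 10 tested rows with an unadjusted p under 0.05. Between L and NL skin 2 of 10 rows were called, *Ccl20* higher and *Ccr4* lower. Of all genes 25% were called there, 13.2% higher and 11.8% lower, and DESeq2 added *Ccl22* and *Ccl17*.

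Per kilobase of exon, *Ccl27b* at 30.2 ± 5.35 CPM per kb (SD, n = 3) and *Ccl27a* at 11.9 ± 2.55 had the highest values in WT skin. *Ccl22* at 1.36 ± 0.307 and *Ccr4* at 1.30 ± 0.0792 did not differ beyond their spread. *Ccr8*, *Ccl20*, *Ccr6*, *Ccr10* and *Ccl17* followed, between 0.359 and 0.157 CPM per kb, with neighbours inside each other's spread. In L skin the order after the *Ccl27* genes was *Ccl22* at 4.68 ± 1.78 (SD, n = 4), then *Ccl20* at 1.66 ± 0.550, *Ccl17* at 1.64 ± 1.14, *Ccr4* at 1.24 ± 0.405 and *Ccr8* at 1.02 ± 0.517, the last 4 within each other's spread. In NL skin *Ccr4* at 2.42 ± 0.686 (SD, n = 2) and *Ccl22* at 2.00 ± 0.508 followed the *Ccl27* genes and did not differ beyond their spread. The exon length of *Ccl27a* joins 19 annotated transcripts into 2377 bases, while the longest of them has 996. Its level per length is therefore a low estimate, and its order against *Ccl27b* cannot be settled.

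Markers of cells that carry or make these molecules are given beside the calls. Among the 6 regulatory T cell markers, *Foxp3*, *Ctla4*, *Il2ra*, *Tnfrsf4* and *Tnfrsf18* exceeded their WT level in L skin by the test, although the sums given above overlapped. General T cell markers, 6 genes with *Cd5* and *Cd2* called higher, summed to 25.8 to 57.6 CPM in L, 37.8 to 54.5 CPM in NL and 31.1 to 44.2 CPM in WT skin. Of 8 dendritic cell markers, *Ccr7*, *Xcr1* and *Fscn1* were higher and *Mgl2* and *Zbtb46* lower, with sums of 65.3 to 104 CPM in L, 56.4 to 67.4 CPM in NL and 51.7 to 116 CPM in WT skin. Of 4 neutrophil markers *S100a8* and *S100a9*, which keratinocytes also make, were higher, and the list summed to 55.3 to 542 CPM in L, 11.9 to 12.1 CPM in NL and 9.84 to 19.3 CPM in WT skin. Macrophage markers, 4 genes with none called, summed to 145 to 395 CPM in L, 256 to 345 CPM in NL and 259 to 608 CPM in WT skin. Of 3 Langerhans cell markers only *Epcam* was called higher in L against WT, and *Cd207* and *Cd74* were not called. Their sums overlapped, at 554 to 1622 CPM in L, 800 to 840 CPM in NL and 607 to 839 CPM in WT skin. The part of these cells in the chemokine levels was not tested.

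Other partners of the same receptors were measured alongside. *Ccl1*, a ligand of CCR8, rose in L against WT skin by 3.32 on the log2 scale (SE 0.98, adjusted p = 0.0237), from counts of 0, 12 and 1 in WT to 56, 42, 56 and 51 in L libraries. Its NL libraries held 10 and 1 counts, and it too passed the low-count filter only through L libraries. *Ccl8*, the other CCR8 ligand, was abundant at 75.6, 207 and 139 CPM in WT, 45.2 and 164 CPM in NL and 345, 136, 545 and 290 CPM in L libraries. The groups overlapped (L against WT 1.23, SE 0.60, adjusted p = 0.134). *Ccl28*, the second ligand of CCR10, was close to the floor, with at most 23 counts in any skin library.

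The scavenger receptors went the other way. *Ackr2*, which binds and removes inflammatory CC chemokines, had 10.2, 16.4 and 8.93 CPM in WT, 17.2 and 15.3 CPM in NL and 6.77, 5.40, 4.45 and 4.27 CPM in L libraries. It fell by 1.18 on the log2 scale from WT to L (SE 0.24, adjusted p = 0.00508) and by 1.64 from NL to L (SE 0.27, adjusted p = 0.00400). *Ackr4*, a scavenger of homeostatic chemokines, had 46.1, 38.2 and 36.6 CPM in WT, 49.8 and 57.9 CPM in NL and 18.4, 33.8, 21.9 and 10.3 CPM in L libraries. It fell by 0.94 (adjusted p = 0.0486) and by 1.35 (adjusted p = 0.0285). For both genes every L library was below every WT and NL library.

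Lists of related genes are described by their counts, beside the 43.1% of all genes called in L against WT skin and 25% in L against NL skin. Of 18 genes of skin-homing adhesion, which make or bind selectin ligands and integrins, 6 rose and 2 fell in L against WT skin, with a median of 0.69 against 0.06 for all genes. *Cd44* rose by 1.54 and *Fut4*, a fucosyltransferase, by 1.40, while *St3gal6*, a sialyltransferase, fell by 2.10 on the log2 scale. Against NL skin 5 rose and 1 fell, with a median of 0.83 against 0.03, led by *Gcnt1* at 1.73. Of 14 tested genes of type 2 cytokines and TSLP, 1 rose and 1 fell against WT, *Il13* by 1.94 and *Il31ra* by -2.65, and the median was -0.02. Against NL skin *Il31ra* and *Gata3* fell and none rose.

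Of 24 tested genes of IL-17, TNF and NF-kB signalling, which acts on *Ccl20* in epithelium, 7 rose in L against WT skin, with a median of 0.32. *Il17a* was counted 13, 8, 6 and 49 times in L libraries and never in WT or NL libraries. *Il12b* was counted 34, 36, 57 and 62 times in L libraries and at most 3 times in the other skin libraries. Both genes passed the low-count filter only through L libraries. Against WT or NL skin they could thus be called only as higher. Of 19 genes of chemokine receptor signalling 2 rose and 2 fell, with a median of 0.20, led by *Gnai3* at 0.44 and *Arrb1*, which desensitizes such receptors, at -0.93. Of 8 tested genes of vitamin D, retinoid and gut-homing pathways 4 rose and 1 fell, with a median of 0.41. *Cyp27b1*, which makes active vitamin D, rose by 2.71, *Vdr*, its receptor, by 1.80, and *Aldh1a1*, a retinal dehydrogenase, fell by 2.99. Against NL skin, 3 rose in the IL-17 list, and 2 rose and 2 fell in both the signalling and the vitamin D list. In NL against WT skin no gene of any list was called.

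In lymph nodes the members fell into a different order. *Ccr6* led at 21.2 ± 3.77 CPM per kb in untreated WT nodes (SD, n = 3), followed by *Ccl22* at 14.8 ± 1.50, *Ccr4* at 2.85 ± 0.713, *Ccr8* at 1.47 ± 0.432, *Ccr10* at 1.05 ± 0.306 and *Ccl17* at 0.340 ± 0.252. *Ccr6*, *Ccl22* and *Ccr4* kept these ranks in all 4 groups, though *Ccr6* and *Ccl22* overlapped in untreated *Ifnk* TG nodes. *Ccr8* and *Ccr10* did not differ beyond their spread in untreated nodes of either genotype. *Ccl27b* had no count in any of the 12 node libraries, the main *Ccl27a* row at most 4 counts and *Ccl20* at most 7, so these ligands were not tested there.

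**Figure D4:**
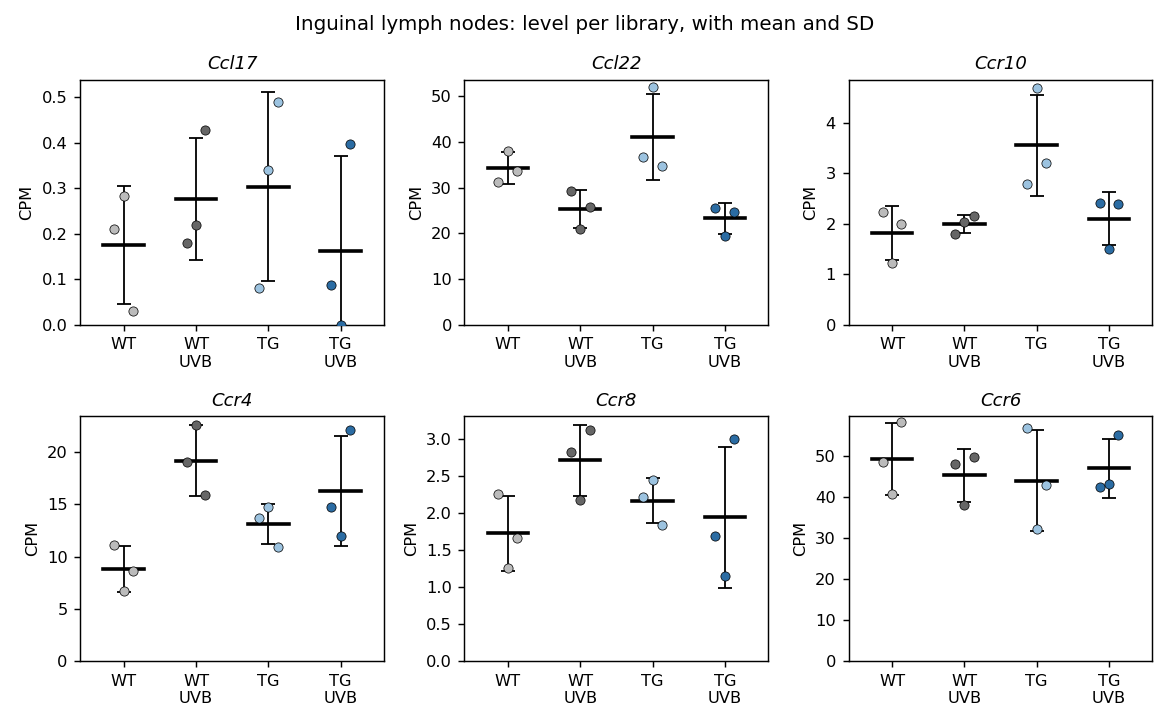
Level in CPM (vertical axes, each starting at 0) of the 6 members tested in nodes, with 1 point per library, for WT and TG nodes without treatment and after UVB (n = 3 each). Horizontal bars are means and error bars SD. The *Ccr4* points of UVB-treated WT nodes lie between 15.8 and 22.6 CPM, above the untreated WT points at 6.71 to 11.1 CPM.

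*Ccr4* rose after UVB in WT nodes, and no other member passed the test in any node comparison. *Ccr4* went from 11.1, 6.71 and 8.60 CPM in untreated WT nodes to 19.0, 22.6 and 15.8 CPM after UVB. The groups did not overlap. The rise was 2.17-fold, or 1.12 on the log2 scale (SE 0.24, adjusted p = 0.0304). So 1 of 6 tested members was called in a comparison that called 4.98% of 16173 genes, 2.92% higher and 2.06% lower. Every UVB-treated WT library was above every untreated one for 19.8% of genes and below for 17.3%. For UVB in *Ifnk* TG nodes these shares were 6.23% and 7.11%. Untreated *Ifnk* TG libraries were all above the untreated WT ones for 5.52% of genes and below for 4.93%. Leaving out untreated WT replicate 2 or 3 ended the call (adjusted p = 0.0821 and 0.132), as did leaving out UVB-treated WT replicate 8 or 9 (0.144 and 0.0670). Without both UVB-treated TG replicates 11 and 12, a fit added after the data were seen, it was 1.12 (adjusted p = 0.00314). That fit leaves replicate 10 as the 1 library of its group, assumed to vary like the other groups, so values it gives below for UVB in *Ifnk* TG nodes rest on a single library.

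In *Ifnk* TG nodes the same gene did not pass the test. It had 13.7, 14.7 and 11.0 CPM without treatment and 14.8, 12.0 and 22.1 CPM after UVB, and the groups overlapped. The difference was 0.31 (95% interval -0.19 to 0.82, adjusted p = 0.720), and 0.18 with replicate 10 as the 1 UVB-treated library. Untreated *Ifnk* TG nodes exceeded untreated WT nodes by 0.57 (95% interval 0.06 to 1.08), with an unadjusted p of 0.0303 and an adjusted p of 1. After UVB the genotypes differed by -0.23 (adjusted p = 0.853). The response to UVB itself differed between the genotypes by -0.80 (95% interval -1.52 to -0.09), with an unadjusted p of 0.0301 and an adjusted p of 0.848, so it did not pass over all genes. With replicate 10 as the 1 UVB-treated TG library it was -0.93.

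Summed markers of several cell types also changed after UVB in WT nodes. The sum of 6 general T cell markers was 1761 to 1840 CPM in untreated WT nodes and 1375 to 1481 CPM after UVB, with *Cd5* and *Cd2* called lower. The sum of 6 regulatory T cell markers was 201 to 251 CPM untreated and 257 to 291 CPM after UVB, with none called. In *Ifnk* TG nodes the regulatory T cell sum was 213 to 229 CPM untreated and 173 to 283 CPM after UVB. Sums of other lists were lower after UVB in WT nodes. Erythroid markers had 80.1 to 168 and then 6.69 to 26.5 CPM (*Hbb-bs* and *Alas2* called). High endothelial markers had 5.01 to 8.26 and then 2.08 to 3.48 CPM (*Glycam1* called). Lymphatic markers had 52.2 to 68.5 and then 14.9 to 40.0 CPM, with none called. Fibroblast markers had 28.6 to 37.9 and then 9.35 to 24.3 CPM, with none called. In *Ifnk* TG nodes, where *Ccr4* did not pass the test, these sums were lower too, with no marker called. Erythroid markers there had 164 to 192 and then 16.7 to 105 CPM. High endothelial markers had 8.10 to 12.8 and then 3.03 to 5.02 CPM, and lymphatic markers 62.2 to 143 and then 21.0 to 60.1 CPM. Only fibroblast markers overlapped, at 33.5 to 60.7 and then 12.1 to 34.6 CPM. The part of these cells in the *Ccr4* level was not tested. *Ccr8*, which regulatory T cells also carry, had 2.26, 1.25 and 1.66 CPM in untreated WT nodes and 2.82, 2.18 and 3.13 CPM after UVB. It differed by 0.65 (95% interval -0.08 to 1.38, adjusted p = 0.238). In *Ifnk* TG nodes it had 2.22, 2.44 and 1.84 CPM and then 1.69, 1.15 and 3.00 CPM, and its UVB response differed between the genotypes by -0.80 (95% interval -1.84 to 0.23, adjusted p = 0.848).

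*Ccl22*, the ligand of CCR4 that node dendritic cells make, was lower after UVB in both genotypes without passing the test. WT nodes had 31.2, 38.1 and 33.7 CPM untreated and 29.3, 21.0 and 25.9 CPM after UVB. *Ifnk* TG nodes had 36.7, 52.0 and 34.7 CPM and then 25.7, 19.5 and 24.7 CPM. Within each genotype no UVB-treated library reached the lowest untreated one. The difference was -0.43 in WT nodes (95% interval -0.80 to -0.07, adjusted p = 0.129) and -0.82 in *Ifnk* TG nodes (-1.18 to -0.46, adjusted p = 0.154, unadjusted p = 0.000290). The WT value passed when only those 2 groups were fitted (adjusted p = 0.0417; 0.0417 to 0.195 over the settings that kept all WT libraries). The *Ifnk* TG value passed with DESeq2 (adjusted p = 0.00289) and without UVB-treated TG replicate 12 (0.0484), and its adjusted p ran up to 0.492, without untreated TG replicate 5. With replicate 10 as the 1 UVB-treated library it was -0.67. The 2 responses differed by -0.38 (95% interval -0.90 to 0.13, adjusted p = 0.848). The sum of 8 dendritic cell markers was lower too, at 579 to 600 CPM untreated and 422 to 469 CPM after UVB in WT nodes, and 544 to 590 CPM and 460 to 507 CPM in *Ifnk* TG nodes. Only *Ccr7* was called among them, in WT nodes. The median change of the 8 markers was -0.02 in WT nodes, beside -0.00485 for all genes. In *Ifnk* TG nodes it was -0.18, beside 0.02. A lower sum is thus not a fall of most markers in WT nodes, and the part of dendritic cells was not tested.

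*Ccr10*, in nodes a receptor of plasma cells and skin-homing T cells, was highest in untreated *Ifnk* TG nodes. It had 2.23, 1.22 and 2.00 CPM in untreated WT nodes and 2.78, 4.68 and 3.20 CPM in untreated *Ifnk* TG nodes, with no overlap. The difference was 0.97 (95% interval 0.33 to 1.60), with an unadjusted p of 0.00588 and an adjusted p of 1. Untreated TG replicate 5, the highest library, also had the lowest B cell sum of its group, 1244 against 2019 and 2361 CPM, and the highest lymphatic and fibroblast sums, 143 and 60.7 CPM against at most 63.9 and 34.4 CPM. Without it the difference was 0.71. After UVB *Ifnk* TG nodes had 2.41, 1.50 and 2.39 CPM, a difference of -0.76 from untreated ones (95% interval -1.39 to -0.12, adjusted p = 0.459) that was -0.55 with replicate 10 as the 1 UVB-treated library. WT nodes after UVB had 1.80, 2.04 and 2.15 CPM. The UVB response differed between genotypes by -0.89 (95% interval -1.79 to 0.01, adjusted p = 0.848). Plasma cell markers, 6 genes, summed to 116 to 126 CPM in untreated WT nodes and 119 to 139 CPM in untreated *Ifnk* TG nodes.

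*Ccr6*, carried by naive B cells in nodes, stayed between 32.3 and 58.3 CPM in all 12 libraries, with all groups overlapping. *Ccl17* was between 0 and 0.49 CPM, at or near the floor in some libraries.

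**Figure D5:**
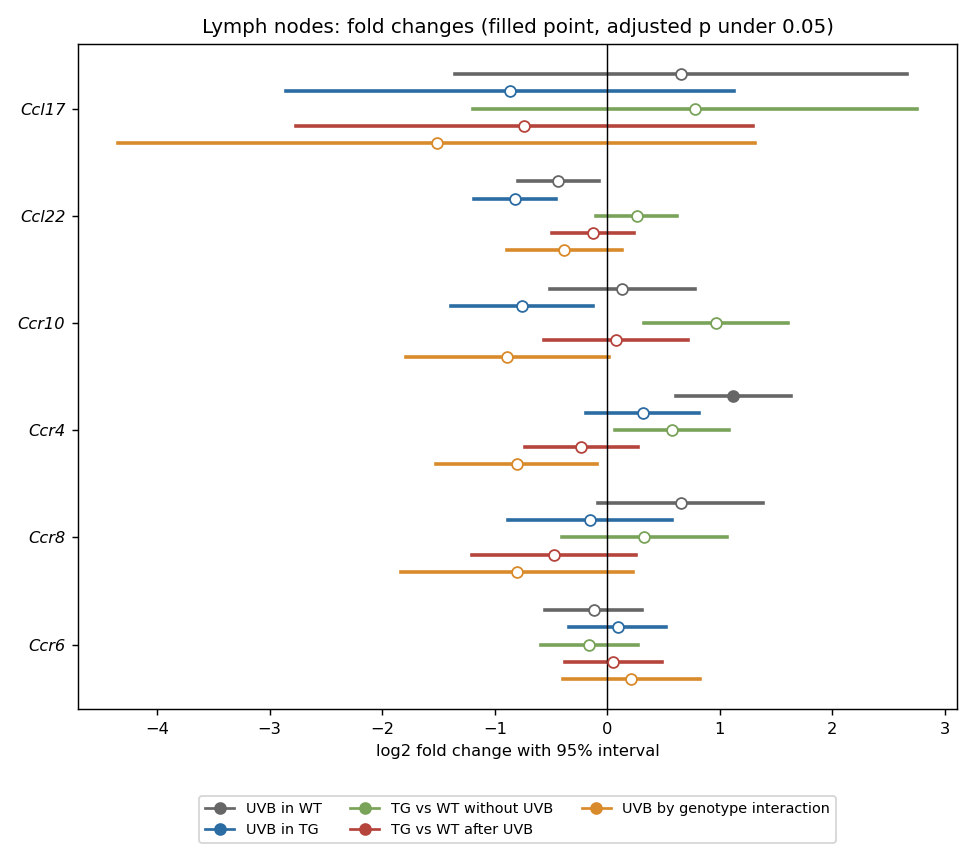
Log2 fold change (horizontal axis) of each member tested in nodes, with its 95% interval, for UVB within each genotype, for genotype without and after UVB, and for the interaction. The only filled point, with an adjusted p under 0.05 by edgeR's test, is *Ccr4* after UVB in WT nodes.

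The remaining node comparisons gave no call for any gene with edgeR. For UVB in *Ifnk* TG nodes 0% of genes were called, 1507 had an unadjusted p under 0.05 and DESeq2 called 132, *Ccl22* among them. *Ccl22* and *Ccr10* were the members with an unadjusted p under 0.05. For *Ifnk* TG against WT nodes without UVB the call share was 0%, with 549 genes at an unadjusted p under 0.05 and 2 called by DESeq2. After UVB it was 0%, with 1131 and 18 genes, and for the interaction 0%, with 881 and 5 genes. None of these DESeq2 calls was a member.

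Among related genes in WT nodes after UVB, 2 of 17 tested adhesion genes rose, *Itgae*, an integrin of epithelium-resident T cells, by 0.87 and *Gcnt1* by 0.66. *Il1rl1*, the IL-33 receptor, rose by 1.00 as the only 1 of 9 type 2 genes. Of 19 receptor signalling genes 3 rose, led by *Rgs1* at 0.82 and *Plcb3* at 0.65, and *Ahr* rose by 0.77 as 1 of 8 in the vitamin D and retinoid list. None fell in these lists, and none of 20 genes in the IL-17 list was called. Median changes of these 5 lists lay between -0.09 and 0.08, beside -0.00485 for all genes. *Ccl1*, *Ccl8*, *Ackr2* and *Ackr4* were not called, although for *Ackr4* the UVB-treated WT libraries, at 0.31 to 0.66 CPM, were above the untreated ones, at 0.03 to 0.25 CPM (adjusted p = 0.159). *Ccl28* was at most 2 counts except for 49 counts in UVB-treated TG replicate 11. No gene of any list was called in the other node comparisons.

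Across the 9 skin libraries *Ccl17* and *Ccr8* had a correlation of log2 CPM of 0.94, *Ccl22* and *Ccr8* of 0.93, and *Ccl20* and *Ccl22* of 0.91, whereas *Ccr4* had -0.13 with *Ccl22* and -0.39 with *Ccl17*. The libraries share lesion state and tissue make-up, so these values describe the set and carry no test. The genes most like each member in skin were *Slc26a9*, *Sox7* and *Cd5* for *Ccl20* (r of 0.99 each), *Septin1*, *Gpr55* and *Snhg6* for *Ccl22* (0.97 to 0.99) and *Shfl*, *Tagln2* and *Trbv29* for *Ccl17* (0.95 to 0.96). They were *Cyp3a13*, *Pcsk6* and *5930430L01Rik* for *Ccr4* (0.93 to 0.98), *Tnfrsf19*, *Gm26688* and *Foxi3* for *Ccr10* (0.96 to 0.98), *Gm47050*, *Trbv29* and *Mpo* for *Ccr8* (0.95 to 0.96) and *Gm48878*, *Ltbr* and *Acsl4* for *Ccr6* (0.91 each). Apart from the *Ccl27* copies themselves, *Slc11a2* was most like *Ccl27a* (0.96) and *Il17re* most like *Ccl27b* (0.95). The *Ccl27a* row on a scaffold was most like *F2rl1*, *4930522L14Rik* and *Trp73* (0.95 to 0.97). Across the 12 node libraries *Zdhhc2*, *Cish* and *Tnfsf14* were most like *Ccr4* (0.92 to 0.95), *Ube2e2*, *Marcks* and *Phldb1* most like *Ccl22* (0.94 each) and *Hvcn1*, *Wdfy4* and *Gm6375* most like *Ccr6* (0.95 to 0.97). For *Ccr10* they were *Coa7*, *Smox* and *Chst1* (0.92 each), for *Ccr8* *Sh3bp5l*, *Krt83* and *Gm7517* (0.90 to 0.93) and for *Ccl17* *Nup35*, *Cenpl* and *Lzic* (0.85 to 0.87).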

How the data were processed

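RNA was measured in 9 skin and 12 inguinal lymph node libraries, grouped by the labels. The authors made poly-A libraries, aligned reads to GRCm38 and estimated counts per gene (STAR 2.7.8a and RSEM 1.3.3 per the submitters' processing notes). These expected counts were deposited as whole numbers without normalization. The annotation release and the use of strand in counting are not given in the sources used here. Reads shared by near-identical genes are divided by estimation, which affects *Ccl27b* and its copy.

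Counts were analysed in R 4.3.3 with edgeR 4.0.16 (low-count filter by filterByExpr, set to 10 counts per library and 15 summed, TMM, robust quasi-likelihood F-test, all libraries of a tissue in 1 fit) rather than DESeq2 1.42.0, which the study used and which was run as an alternative. P-values were adjusted by Benjamini-Hochberg over all genes tested in a comparison, with a threshold of 0.05, and intervals are 95% intervals from edgeR's degrees of freedom. CPM values are on the TMM scale. Depth was 27599809 to 56511276 counts per library. The floor of 3 counts covers counting error only, since the counts are of reads and not of tagged molecules. The fit was first tested on simulated data, with fold changes set for 200 genes. Positions and exon lengths came from GENCODE M21 (GRCm38), and promoters from RefSeq (GRCm38.p6). Protein sequences were not used here.

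The members, gene lists and tests were chosen with earlier results of these data known. Genes named are the 9 members, their *Ccl27* copies and neighbours, all of a list of other partners, at most 2 called genes per direction of each further list with the largest change, and the 3 genes most correlated with each member. A result for 1 gene of these lists is not reported here. The alternatives tried were DESeq2, normalization by RLE or upper quartile, no filter, at least 10 counts in every library, no robust estimation, adjusted p under 0.01, only the groups compared, *Xist* as covariate, skin without muscle, adipocyte and hair genes, and each library left out. Summing the *Ccl27* rows and leaving out 2 node libraries were added after seeing the data.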

Additional observations from a re-analysis of the deposited data

How the results depend on the processing

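No paired analysis was possible because the replicate numbers are running sample numbers within each tissue, so that no groups compared share them. In L against WT skin 5 members were called, and 3 with at least 10 counts in every library, where *Ccl17* and *Ccr10* were no longer tested. The count was 2 at an adjusted p under 0.01, 3 with only the 2 groups fitted and 3 to 4 with 1 library left out. In L against NL skin 2 were called, and 4 with DESeq2, 1 with upper-quartile normalization, 1 without a filter, 0 at an adjusted p under 0.01, 0 with only the 2 groups fitted and 0 to 3 with 1 library left out. For UVB in WT nodes 1 was called, and 0 at an adjusted p under 0.01, 2 with only the 2 groups fitted and 0 to 1 with 1 library left out. For UVB in *Ifnk* TG nodes 0 were called, and 1 with DESeq2 and 0 to 1 with 1 library left out. The other 4 comparisons gave no member call under any alternative run. With 1 library left out, the L against WT value ran from -0.23 to 0.64 for *Ccl27a*, from -0.45 to 0.32 for *Ccl27b* and from -0.30 to 0.10 for *Ccr4*. No other member difference whose refits were kept changed sign. Refits of the remaining differences were not kept, and some of these differences lay near 0, such as *Ccr6* between NL and WT skin. Summed *Ccl27*, the related genes and marker lists were not refitted under the alternatives. The number of genes called in UVB-treated *Ifnk* TG nodes was 0 with edgeR, 132 with DESeq2 and 644 without replicates 11 and 12, which leaves 1 library in that group and takes the spread from the others, and in WT nodes 805, 1967 and 2733, with 2431 when only the 2 groups were fitted and 168 with *Xist* as a covariate. At an adjusted p under 0.01 it was 4823 in place of 8237 in L against WT skin, 1872 in place of 4782 in L against NL skin and 1 in WT nodes, and in L against NL skin 3156 with only the 2 groups fitted. In NL against WT skin it was 0 with edgeR, 62 with DESeq2 and 1 with only the 2 groups fitted, and between genotypes after UVB 0, 18 with DESeq2 and 1 without a filter. The causes of these shifts were not tested. *Ccl17*, *Ccr10*, *Ccr8*, *Ccr6* and *Ccl20* had under 1 CPM in WT skin, where depth limits what can be seen. With 2 NL libraries, comparisons with NL skin lose most calls when either is left out.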
